A study of Arabidopsis thaliana with 32 samples.

Results

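The loss of the 4 LSU genes was compared between shoots and roots of Arabidopsis thaliana grown with normal sulfur supply [nS]. For each gene, the difference between q-lsu-KO and WT was taken in shoots and again in roots, and the interaction term is the shoot difference minus the root difference on the log2 scale. A term above 0 means that the transcript was higher in the mutant relative to WT in shoots than in roots, and a term below 0 the reverse. All libraries of the [nS] condition were taken, 16 of the 32 libraries of the series, with 4 libraries in each of 4 groups: WT shoots, q-lsu-KO shoots, WT roots and q-lsu-KO roots.

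WT was the Col-0 ecotype, and q-lsu-KO is 1 mutant line in the same ecotype with a deletion in all of LSU1 to LSU4, so that a change particular to this line cannot be told apart from one that any quadruple mutant would show. Seedlings of both genotypes were 15 days old, after 10 days and a further 5 days on agar medium with 1 mM sulfate, in short days (8 h light, 16 h dark). RNA was taken separately from shoots and roots, from at least 10 seedlings per sample, and measured by 3′RNA-seq, in which a transcript is counted by a read from near its 3′ end. All 8 shoot libraries were in 1 sequencing pool and all 8 root libraries in another, so that each difference between genotypes lies within a pool, while tissue and pool cannot be told apart. In pooled tissue, fewer cells of a type and less RNA per cell cannot be told apart.

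LSU proteins (RESPONSE TO LOW SULFUR) are small plant proteins that bind each other and many partners, and their transcripts are among those that accumulate when sulfate runs short. Sulfate is taken up by roots, activated by ATP sulfurylase, reduced by APS reductase and built into cysteine, from which glutathione is made, mostly in green tissue. In the cabbage family, a further sink for sulfur is glucosinolates (GSL), defense compounds made from methionine (aliphatic GSL) or tryptophan (indole GSL), whose synthesis is shut down and whose breakdown is raised when sulfur is short.

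Library totals ran from 1440122 to 2032330 counts in WT shoots, from 1223064 to 1743661 in q-lsu-KO shoots, from 1071809 to 2488983 in WT roots and from 893225 to 1395792 in q-lsu-KO roots. The tissue labels matched their markers. Root markers (7 genes, such as PYK10, CASP1 and the root hair expansin EXPA7) summed to between 5012 and 6193 CPM (counts scaled to a common library size) in root libraries and to between 415 and 608 CPM in shoot libraries, and leaf markers (7 genes, such as RCA and LHCB1.3) summed to between 56807 and 63410 CPM in shoots and between 94.0 and 371 CPM in roots. In shoots up to 6 of the 7 root markers were at 0, and in roots 1 of the 7 leaf markers at most. Neither marker list had a called member for the interaction or in either tissue. LSU2 (AT5G24660; chr5:8443279-8444101) checked the genotype labels: its level per library was 123, 160, 177 and 211 CPM in WT shoots, 3.41, 3.18, 3.81 and 3.18 CPM in q-lsu-KO shoots, 184, 170, 162 and 163 CPM in WT roots and 3.58, 1.67, 4.90 and 2.82 CPM in q-lsu-KO roots. Every mutant library was below every WT library in both tissues.

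More genes were called between genotypes in shoots than in roots. With 16522 genes tested by edgeR's quasi-likelihood test and calls made at an adjusted p under 0.05 and a change over 1.5-fold, 855 genes were called in shoots (5.17% of those tested; 612 up, 3.7%, and 243 down, 1.47%) and 17 in roots (0.103%; 11 up, 0.0666%, and 6 down, 0.0363%). Root calls numbered 35 without replicate 1 of mutant roots and 9 without replicate 3 of WT roots. The median standard error was 0.22 in shoots and 0.21 in roots. All 4 groups share 1 estimate of the spread per gene in this model, so this likeness does not compare the precision of the tissues. An unadjusted p under 0.05 was reached by 2879 genes in shoots and 988 in roots. Fitted alone, the 8 libraries of each tissue gave 713 calls in shoots and 27 in roots. The interaction was called for 365 genes (2.21%), with 278 above 0 (1.68%) and 87 below 0 (0.527%), and 1865 genes had an unadjusted p under 0.05. Its median standard error was 0.33, as a difference of differences carries the error of all 4 groups. Over all tested genes the median term was 0.01, the median shoot effect -0.0003 and the median root effect -0.02. TMM scaling centres the bulk of genes near 0, so these medians say nothing of a shift shared by most genes.

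Most terms came from a change in shoots that roots did not show. Of the 278 genes above 0, 244 were called up in shoots and in roots not called, 3 were called down in roots and in shoots not called, and 31 were called in neither tissue. Of the 87 below 0, 64 were called down in shoots and 23 in neither. No gene was called up in one tissue and down in the other. The shoot effect was larger in size than the root effect in 346 of the 365 genes. Median effects were 1.20 in shoots and -0.11 in roots for the genes above 0, and -0.89 and 0.10 for those below 0. These medians describe genes chosen by the term itself and support nothing beyond it. A call in shoots alone does not show a difference between tissues: of the 612 genes that rose in shoots 244 (39.87%) also had a called term, and of the 243 that fell 64 (26.34%) did.

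**Figure D1:**
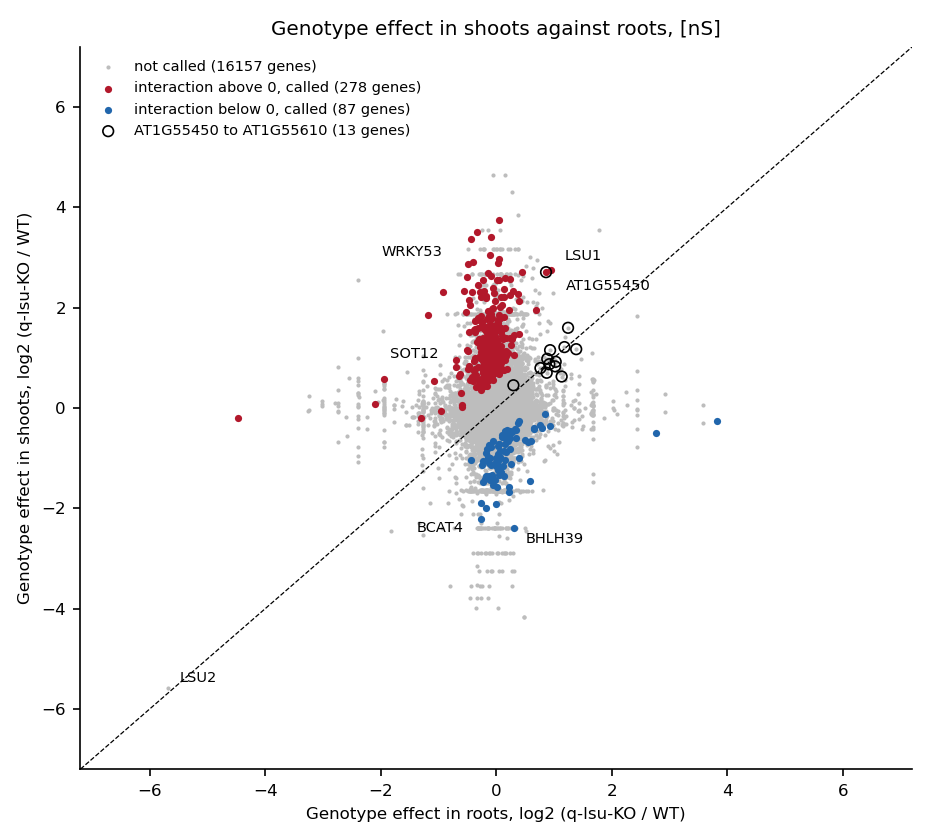
Genotype effect of each of the 16522 tested genes, as log2 of q-lsu-KO over WT, in roots (x axis) and shoots (y axis) under [nS]. Red and blue points are the 278 and 87 genes whose interaction was called above and below 0, grey points were not called, open circles mark the run of 13 genes between AT1G55450 and AT1G55610, and the dashed line marks equal effects. The called genes spread along the shoot axis near a root effect of 0, LSU2 lies on the dashed line at -5.57 in shoots and -5.69 in roots, and the open circles other than AT1G55450 lie along it.

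Upstream sequences are shown for 4 genes with called terms on both sides of 0, from 250 bases before the annotated start in the TAIR10.1 genome of RefSeq. These genes were picked by hand from the named genes and do not stand for the others. WRKY53 (chr4:12393983-12394232, minus strand) and SDI1 (chr5:19807854-19808103, minus strand) are genes with a called term above 0, and BCAT4 (chr3:6849583-6849832, minus strand) and SOT17 (chr1:6398281-6398530, plus strand) are genes with a called term below 0. Capitals mark the core of the W-box, the element bound by WRKY factors (TTGAC, or GTCAA on the other strand), and the core of a sulfur-responsive element (GAGAC, or GTCTC on the other strand), and no 2 of these matches overlap.
WRKY53: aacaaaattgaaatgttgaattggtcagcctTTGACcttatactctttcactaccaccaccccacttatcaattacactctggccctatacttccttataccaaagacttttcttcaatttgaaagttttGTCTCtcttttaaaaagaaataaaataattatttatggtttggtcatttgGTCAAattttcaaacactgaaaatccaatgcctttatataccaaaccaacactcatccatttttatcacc
SDI1: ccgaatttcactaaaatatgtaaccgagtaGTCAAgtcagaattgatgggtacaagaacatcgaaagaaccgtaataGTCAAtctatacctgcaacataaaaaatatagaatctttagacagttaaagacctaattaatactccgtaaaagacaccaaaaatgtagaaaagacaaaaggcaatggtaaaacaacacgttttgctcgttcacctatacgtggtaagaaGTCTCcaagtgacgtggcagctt
BCAT4: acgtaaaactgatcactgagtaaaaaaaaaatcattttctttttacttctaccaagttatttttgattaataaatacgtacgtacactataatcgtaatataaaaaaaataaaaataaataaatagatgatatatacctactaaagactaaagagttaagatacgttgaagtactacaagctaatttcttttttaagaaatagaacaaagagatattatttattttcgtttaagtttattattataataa
SOT17: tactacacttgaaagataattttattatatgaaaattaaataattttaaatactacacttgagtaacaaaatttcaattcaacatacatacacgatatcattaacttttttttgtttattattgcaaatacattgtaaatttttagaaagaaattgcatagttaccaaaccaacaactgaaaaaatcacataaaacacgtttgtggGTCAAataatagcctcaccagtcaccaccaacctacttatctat
WRKY53 and SDI1 each held 2 W-box cores and 1 sulfur-responsive core, SOT17 held 1 W-box core, and BCAT4 held neither. The W-box core stood in 53.4% of the upstream sequences of the genes called above 0, 35.3% of those called below 0 and 45.4% of all tested genes with a sequence (7431 of 16354). The sulfur-responsive core stood in 26%, 22.4% and 24.9%, and the G-box CACGTG in 8.3%, 7.06% and 7.37%. Such short words are common, and a match is a description of these letters only.

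Among the LSU genes themselves, LSU2 was low in the mutant in both tissues, while 3′ tags of the other members were counted in the mutant and stood highest in its shoots. LSU2 had a term of 0.11 ± 0.50 (SE; 95% interval -0.88 to 1.11; edgeR adjusted p = 0.993), from effects of -5.57 ± 0.22 in shoots and -5.69 ± 0.20 in roots, with 15 and 17 counts in all in the mutant. LSU1 (AT3G49580; chr3:18374908-18375940) read 104, 175, 234 and 230 CPM in WT shoots against 1227, 1171, 1426 and 1137 CPM in q-lsu-KO shoots, and 179, 164, 130 and 160 CPM in WT roots against 334, 256, 296 and 317 CPM in q-lsu-KO roots. The mutant was above WT in every library of both tissues, and further above in shoots, with effects of 2.75 ± 0.20 and 0.94 ± 0.20 and a term of 1.81 ± 0.28 (adjusted p = 0.00305); the root effect itself was not called (adjusted p = 0.21). LSU4 (AT5G24655; chr5:8440601-8441364) read 3.20, 6.69, 15.1 and 4.05 CPM in WT shoots and 38.3, 45.6, 47.2 and 28.7 CPM in the mutant, and lay between 15.3 and 30.4 CPM in all root libraries. Its shoot groups did not overlap and its root groups did, and the term was 2.33 ± 0.40 (adjusted p = 0.000515).
LSU3 (AT3G49570; chr3:18372404-18373147) had shoot values of 33.9, 53.5, 82.8 and 103 CPM in WT and 322, 326, 362 and 310 CPM in q-lsu-KO, beside 33.9, 32.4, 27.4 and 21.9 CPM in WT roots and 40.2, 52.6, 45.8 and 53.5 CPM in mutant roots. Neither pair of groups overlapped. Its term of 1.55 ± 0.37 lay just outside the threshold (adjusted p = 0.0516) and passed without replicate 1 (adjusted p = 0.000193) or replicate 4 (adjusted p = 2.08e-05) of WT shoots, and in 9 of 31 alternatives in all, among them DESeq2, voom, no filter, both stricter filters and all 32 libraries. LSU1 and LSU4 were 2 of 4 members called for the interaction, against 2.21% of all tested genes. Reads from the 3′ end check a deletion only where it covers that end, and related genes can share reads, so that the source of the LSU1, LSU3 and LSU4 counts in the mutant is uncertain.

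**Figure D2:**
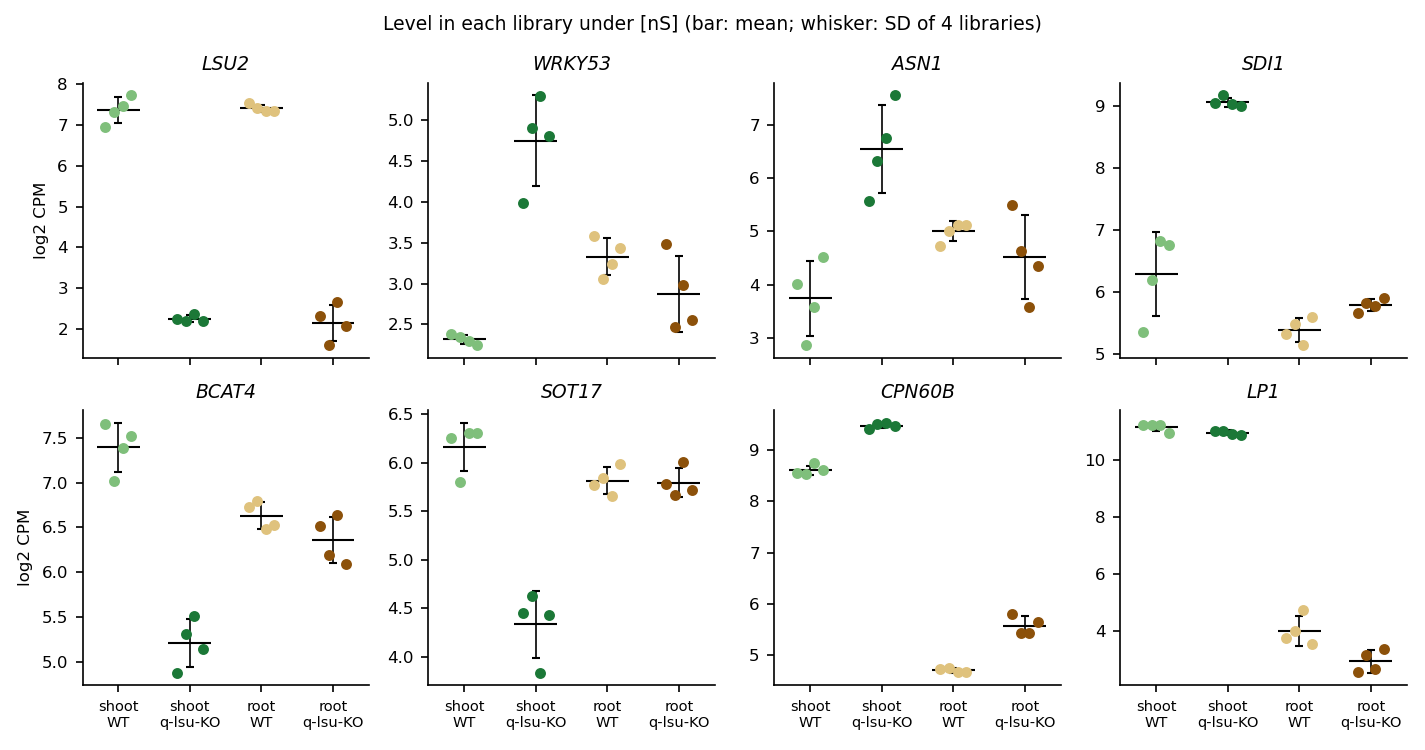
Level of 8 genes in each library as log2 CPM (y axis) by tissue and genotype (x axis), with the mean as a bar and the SD of 4 libraries as a whisker. In WRKY53, ASN1 and SDI1 the mutant shoots stand above all WT shoots while the root groups lie close together or overlap, in BCAT4 and SOT17 the mutant shoots stand below, LSU2 falls in both tissues, CPN60B rises in both, and LP1 falls in roots.

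Markers of sulfur deficiency were higher in mutant shoots, and to a smaller extent or not measurably in mutant roots. Of 15 listed markers, 5 had a called term above 0 (NSP5, SHM7, GGCT2;1, SDI1 and LSU1) and none below, beside 1.68% and 0.527% of all tested genes, with a median term of 1.27 over the 15. LSU1 is among the 5, although the source of its reads in the mutant is uncertain. In shoots 9 rose (3.7% of all tested genes) and 1, LSU2, fell; in roots none rose, and LSU2 fell. The list was written with results of these data known.
SDI1 (AT5G48850; chr5:19805437-19807853), which represses GSL synthesis when sulfur is short, read 39.7, 72.1, 111 and 107 CPM in WT shoots and 528, 574, 520 and 507 CPM in q-lsu-KO shoots. In roots it read 38.5, 43.5, 33.9 and 46.7 CPM in WT and 49.2, 55.1, 53.1 and 58.1 CPM in q-lsu-KO. The mutant was above WT in all libraries of both tissues, and the effects of 2.71 ± 0.21 and 0.44 ± 0.27 differed by 2.27 ± 0.34 (adjusted p = 0.00187).
NSP5 (AT5G48180), a nitrile-specifier protein that acts on GSL breakdown products, was steady between replicates. It stood at 185, 188, 192 and 199 CPM in WT shoots and at 480, 503, 479 and 411 CPM in mutant shoots, whereas all root libraries lay between 142 and 197 CPM with the genotypes overlapping. Its term was 1.28 ± 0.12 (adjusted p = 4.05e-10).
GGCT2;1 (AT5G26220), a γ-glutamyl cyclotransferase that degrades glutathione, read 79.9, 98.1, 109 and 88.5 CPM in WT shoots and 481, 492, 438 and 391 CPM in q-lsu-KO shoots. Root libraries held 10.9 to 36.7 CPM with overlapping groups. The term was 1.90 ± 0.23 (adjusted p = 1.97e-06), and its family member GGCT2;2 (AT4G31290) had 0.56 ± 0.15 (adjusted p = 0.0214), which did not pass the 1.5-fold limit.
SHM7 (AT1G36370), a serine hydroxymethyltransferase-like gene of one-carbon metabolism, had shoot values of 33.3, 60.2, 64.1 and 69.6 CPM in WT and 201, 266, 256 and 273 CPM in the mutant, and a term of 1.75 ± 0.23 (adjusted p = 8.74e-06). BGLU28, a β-glucosidase that hydrolyzes GSL, rose in shoots by 3.56 ± 0.42 with a root value of 1.77 ± 0.60 that was not called, and its term of 1.79 ± 0.88 did not pass (adjusted p = 0.441).

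For uptake and reduction of sulfate, 1 of 26 tested genes had a called term, and it was below 0; at 2.21% of all tested genes called, this count is no result about the group. None of 10 tested sulfate transporters (of 12 listed) was called for the interaction, and their median term was 0.20. SULTR1;2 (AT1G78000), the main uptake transporter of roots, read 412, 376, 353 and 405 CPM in WT roots and 540, 420, 453 and 382 CPM in mutant roots, which overlap. In shoots it was low, at 1.78 to 4.46 CPM in WT and 6.36 to 12.7 CPM in q-lsu-KO, without overlap, and it rose there by 1.48 ± 0.37 (adjusted p = 0.0072). Its term of 1.27 ± 0.38 missed the threshold (adjusted p = 0.0742) and passed without replicate 1 of q-lsu-KO roots (adjusted p = 0.0422). SULTR4;2 (AT3G12520), a vacuolar exporter of sulfate, rose in shoots by 1.07 ± 0.18, with a root value of 0.46 ± 0.23 and a term of 0.61 ± 0.29 (95% interval 0.02 to 1.20; adjusted p = 0.414).
ATPS2 (AT1G19920), an ATP sulfurylase, was the member called among 16 genes that reduce sulfate and make cysteine. It stood at 92.7, 71.3, 94.3 and 83.1 CPM in WT shoots and at 36.6, 33.9, 33.5 and 21.2 CPM in mutant shoots, and between 27.7 and 47.6 CPM in all root libraries. Shoot groups were apart and root groups overlapped, with a term of -1.41 ± 0.23 (adjusted p = 3.73e-05). APR2 (AT1G62180), the main APS reductase isoform, had a term of -0.45 ± 0.12 (adjusted p = 0.0373) that stayed under 1.5-fold. The other 14 members were not called, and their terms ran from -0.42 (SERAT2;1) to 1.12 (SERAT3;2), both serine acetyltransferases.

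Genes of aliphatic GSL synthesis were lower in mutant shoots in most cases, and none was called in mutant roots. Of 28 listed genes 26 were tested, 15 had a called term below 0 against 0.527% of all genes, none above, and all 26 terms were below 0, with a median of -1.06, a 2.08-fold difference. The 26 include MYB29, which had no count in roots, so that its term does not compare the tissues. In shoots 21 fell (median effect -1.30), beside 1.47% of all tested genes. In roots none was called (median -0.07), beside 0.103% of all tested genes. Among library means of log2 CPM over the 26 genes, WT shoots lay between 6.53 and 6.75, mutant shoots between 5.20 and 5.55, WT roots between 5.14 and 5.20 and mutant roots between 4.94 and 5.15. The mutant shoots were thus apart from WT shoots and nearer to the root level. Of the WT tissues, shoots had the higher level.
BCAT4 (AT3G19710; chr3:6846969-6849582), the aminotransferase that opens methionine chain elongation, had the largest of the list's called terms. Its shoot values were 200, 129, 166 and 182 CPM in WT and 28.1, 38.2, 44.1 and 34.0 CPM in q-lsu-KO, and its root values were 104, 109, 87.7 and 91.2 CPM in WT and 90.3, 71.8, 98.1 and 67.1 CPM in q-lsu-KO. Shoot groups were far apart and root groups overlapped, with a term of -1.95 ± 0.20 (adjusted p = 1.9e-08) from -2.22 ± 0.15 and -0.27 ± 0.13.
The later steps of elongation fell as well. IMD1 (AT5G14200), an isopropylmalate dehydrogenase of the cycle, stood at 393, 383, 416 and 428 CPM in WT shoots and at 168, 184, 148 and 123 CPM in mutant shoots, with all roots between 208 and 274 CPM. Its term was -1.31 ± 0.13 (adjusted p = 4.05e-10). The condensing enzyme MAM1 (-1.25 ± 0.18), the isomerase subunits IPMI1 (-1.26 ± 0.22) and IPMI2 (-0.83 ± 0.16), and the plastid transporter BAT5 (-1.63 ± 0.28) were called too. MAM3 (-0.66 ± 0.21, adjusted p = 0.0828) was not, and the isomerase large subunit IIL1 (-0.46 ± 0.12, adjusted p = 0.0202) and BCAT3 (-0.57 ± 0.17, adjusted p = 0.0486) stayed under 1.5-fold.
In the core of aliphatic GSL synthesis, CYP83A1 (AT4G13770), which oxidizes the aldoximes, read 460, 396, 422 and 385 CPM in WT shoots and 166, 163, 171 and 145 CPM in mutant shoots, and 78.3 to 137 CPM in roots, where the groups overlapped. Its term was -1.17 ± 0.15 (adjusted p = 8.68e-07). SOT17 (AT1G18590), a desulfo-GSL sulfotransferase, stood at 74.8, 54.2, 77.4 and 77.7 CPM in WT shoots and at 20.4, 23.3, 12.9 and 20.2 CPM in mutant shoots, beside 49.2 to 62.9 CPM in all roots. The shoot groups were apart and the term was -1.91 ± 0.22 (adjusted p = 1.62e-08). SOT18 (-1.28 ± 0.19), the glucosyltransferase UGT74C1 (-1.05 ± 0.21) and the glutathione transferases GSTF11 (-1.34 ± 0.32) and GSTU20 (-0.59 ± 0.15) were also called. CYP79F2 was called (-1.59 ± 0.30) and its close copy CYP79F1, which fell in shoots by 2.29 ± 0.15, was not, being almost absent from roots; these copies can share reads.
Regulators and side-chain enzymes followed in part. MYB28, the main activator of the pathway, had a term of -0.99 ± 0.20 (adjusted p = 0.00148), and its shoot effect was -0.85 ± 0.13. MYB29 had no count in roots, fell in shoots by 1.71 ± 0.20 (adjusted p = 1.7e-08) and cannot be compared between tissues. GSL-OH, a side-chain hydroxylase, had -0.69 ± 0.11. The side-chain genes AOP2, FMOGS-OX1 and FMOGS-OX3 fell in shoots by 2.53 ± 0.26, 1.4 ± 0.21 and 1.90 ± 0.17, but their terms had standard errors of 1.04, 1.14 and 0.48 and were not called.

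**Figure D3:**
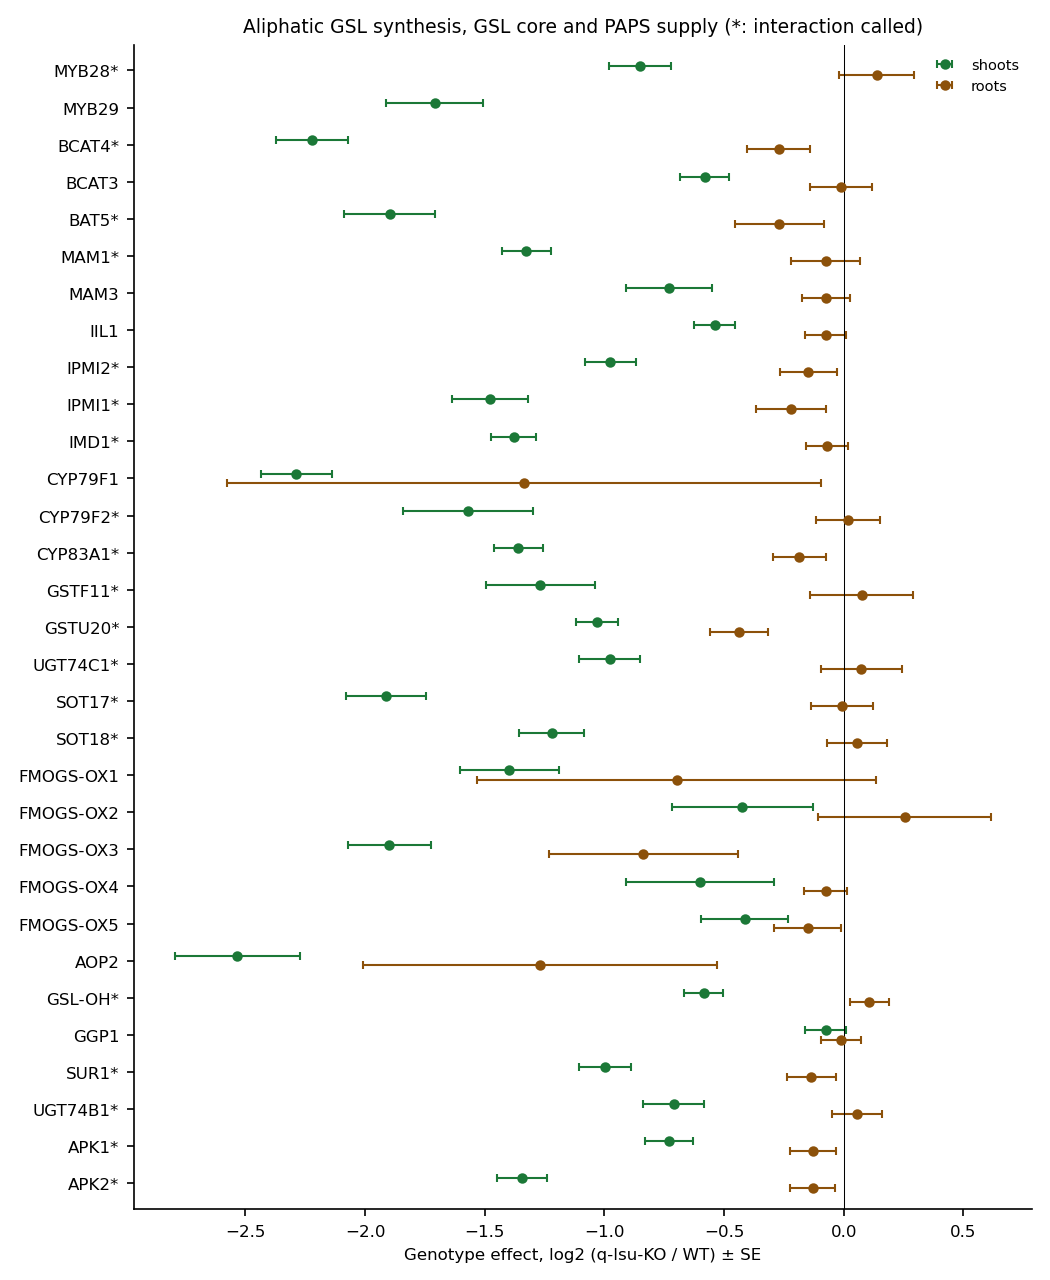
Genotype effect (x axis, log2 of q-lsu-KO over WT, ± SE) in shoots (green) and roots (brown) for each tested gene of aliphatic GSL synthesis and of the shared core with PAPS supply (y axis). Asterisks mark the 15 and 4 genes whose interaction was called, and MYB29 has no root point because it had no root count. Shoot points lie below 0 in every gene, and most root points lie near 0.

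The steps that aliphatic and indole GSL share, with the supply of the sulfate donor PAPS, behaved like the aliphatic genes. Of 5 genes 4 had a called term below 0 (0.527% of all tested genes; median -0.765), and GGP1, a γ-glutamyl peptidase, did not (-0.06 ± 0.12, 95% interval -0.30 to 0.17). The APS kinase APK2 (AT4G39940) read 201, 169, 217 and 192 CPM in WT shoots, 67.3, 83.8, 78.4 and 77.5 CPM in mutant shoots and 115 to 147 CPM in all roots, for a term of -1.22 ± 0.14 (adjusted p = 2.55e-08). Shoot groups were apart by a wide margin. Its paralog APK1 (AT2G14750) changed less, with -0.60 ± 0.14 (adjusted p = 0.00671), and fell just below the 1.5-fold limit without replicate 3 of WT roots or replicates 1 or 3 of mutant roots (adjusted p between 0.00977 and 0.0283). The C-S lyase SUR1 (AT2G20610) and the glucosyltransferase UGT74B1 (AT1G24100) had -0.86 ± 0.15 and -0.76 ± 0.17 (adjusted p = 0.000117 and 0.00287).

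Indole GSL genes were split. Of 16 genes, 5 had a called term below 0 (0.527% of all tested genes) and 2 above (1.68%), with a median of 0.07. Below 0 were the regulator MYB34 (-1.48 ± 0.34), CYP79B2 (-0.83 ± 0.21), CYP83B1 (-1.05 ± 0.13), GSTF9 (-1.0 ± 0.11) and SOT16 (-0.63 ± 0.14), which make the core structure, and above 0 were MYB51 (2.1 ± 0.36), a regulator that also answers to pathogens, and CYP81F2 (2.41 ± 0.46), which modifies the indole ring. CYP83B1 (AT4G31500) read 182, 153, 156 and 151 CPM in WT shoots and 71.5, 80.6, 74.6 and 63.7 CPM in mutant shoots, and between 251 and 298 CPM in roots, with overlap only in roots (adjusted p = 1.98e-07). GSTF9 (AT2G30860), a glutathione transferase, stood at 1274, 1169, 1352 and 1212 CPM in WT shoots and at 653, 628, 636 and 574 CPM in mutant shoots, beside 1210 to 1343 CPM in roots (adjusted p = 2.26e-09). MYB51 (AT1G18570) moved the other way, from 4.48, 7.43, 5.34 and 17.6 CPM in WT shoots to 24.7, 27.6, 37.3 and 32.9 CPM in mutant shoots, with 14.1 to 30.4 CPM in roots (adjusted p = 0.000314). Of 16 tested genes of GSL breakdown, 2 had a called term above 0 (1.68% of all tested genes) and 1 below (0.527%). The other 13 were not called, and the median term was 0.30. Above 0 were NSP5 and the nitrilase NIT3 (1.27 ± 0.29, adjusted p = 0.00548), and below 0 was the nitrilase NIT4 (AT5G22300, -1.26 ± 0.32, adjusted p = 0.0173). NIT4 was not called without replicate 2 of WT roots (adjusted p = 0.0639) or replicate 2 of mutant roots (adjusted p = 0.111), and NIT3 can share reads with NIT1 and NIT2. PYK10 (AT3G09260), the β-glucosidase of root ER bodies, stood at 3456 to 4507 CPM in roots and 536 to 778 CPM in shoots, with a term of -0.30 ± 0.12 (adjusted p = 0.271).

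Genes of touch and early stress were higher in mutant shoots and close to WT in mutant roots, but WT shoots varied widely in them. Of 25 listed genes 23 were tested, and 17 rose in shoots (3.7% of all tested genes; median effect 1.84) and none was called in roots (median -0.05). All 23 terms were above 0, with a median of 1.72, and 7 were called, beside 1.68% of all tested genes: TCH2, TCH3, CML38, WRKY33, WRKY53, ERF1A and MYB44. The mean log2 CPM of the 23 genes was 2.69, 3.80, 4.39 and 5.22 in the WT shoot libraries, 6.10, 6.28, 6.15 and 5.73 in mutant shoots, 4.33 to 4.49 in WT roots and 4.25 to 4.515 in mutant roots. Mutant shoots lay above every WT shoot library, and the range among WT shoots was wider than in any other group. The number called was 4 without replicate 3 of mutant shoots and 12 without replicate 4 of WT shoots.
WRKY53 (AT4G23810; chr4:12392370-12393982), a transcription factor of senescence and defense, was low in all WT shoots. It read 3.84, 3.72, 3.56 and 3.38 CPM in WT shoots, 14.5, 28.6, 38.1 and 26.5 CPM in mutant shoots, 10.6, 6.95, 8.09 and 9.48 CPM in WT roots and 9.84, 4.18, 6.54 and 4.51 CPM in mutant roots. Shoot groups were apart, root groups overlapped, and the term was 3.36 ± 0.46 (adjusted p = 1.07e-06). CML38 (AT1G76650), a calmodulin-like calcium sensor, varied widely in WT: 1.28, 5.94, 12.5 and 22.3 CPM in WT shoots against 66.4, 75.3, 63.9 and 64.7 CPM in mutant shoots, with 13.1 to 21.5 CPM in roots. Its term was 2.84 ± 0.52 (adjusted p = 0.00686), a call lost with all 32 libraries (adjusted p = 0.0876).
TCH2 (AT5G37770), another calmodulin-like gene, stood at 35.8, 65.4, 57.0 and 83.1 CPM in WT shoots and at 137, 152, 126 and 175 CPM in mutant shoots, and at 34.2 to 51.0 CPM in roots. Its term was 1.46 ± 0.24 (adjusted p = 0.000544), a call also lost with all 32 libraries (adjusted p = 0.0786). MYB44 (AT5G67300), a regulator of stress and hormone responses, read 51.8, 64.7, 57.8 and 93.9 CPM in WT shoots and 129, 155, 183 and 239 CPM in mutant shoots, with a term of 1.68 ± 0.30 (adjusted p = 0.00634). WRKY33, the regulator of camalexin synthesis, had 2.77 ± 0.56 (adjusted p = 0.0192), and WRKY40, which rose in shoots by 2.12 ± 0.49, had a term of 2.47 ± 1.19 that was not called (adjusted p = 0.468).

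Of 22 listed genes of salicylate and pattern-triggered defense 18 were tested, 7 had a called term above 0 (1.68% of all tested genes) and none below, and the median term was 0.56. The called members were signaling and regulatory genes. AT2G14610, AT3G57260, AT2G19190 and AT1G02450 were listed but did not pass the filter on low counts, so nothing is shown for them. SOBIR1 (AT2G31880), a receptor-like kinase, read 44.8, 34.2, 31.1 and 46.6 CPM in WT shoots and 98.8, 118, 107 and 90.2 CPM in mutant shoots, with 44.3 to 76.9 CPM in roots, and its term was 1.66 ± 0.19 (adjusted p = 3.03e-08). MPK3 (AT3G45640), a mitogen-activated protein kinase of immunity, stood at 102, 109, 120 and 195 CPM in WT shoots and at 378, 406, 389 and 388 CPM in mutant shoots, and at 47.1 to 59.7 CPM in all roots (term 1.51 ± 0.22, adjusted p = 0.000113). In both genes the shoot groups were apart and the root groups overlapped. RBOHD (AT5G47910), the NADPH oxidase of the oxidative burst, had 0.99 ± 0.21 (adjusted p = 0.00197). SARD1 (AT1G73805), which activates salicylate synthesis, had 2.04 ± 0.50 (adjusted p = 0.0116) and was not called without replicate 2 (adjusted p = 0.0583) or replicate 3 (adjusted p = 0.0518) of WT shoots. RBOHD and SARD1 both lost their calls with all 32 libraries. PAD4 (1.21 ± 0.30), BIK1 (1.01 ± 0.29) and CBP60g (2.09 ± 0.49) were the other 3. The synthase ICS1 had -0.75 ± 0.41 and the receptor kinase FLS2 0.77 ± 1.41, neither of them called. Without replicate 3 of WT shoots 3 members were called.

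In the jasmonate pathway 19 of 25 listed genes were tested and 4 had a called term above 0 (1.68% of all tested genes), with a median of 0.53. JAZ1 (AT1G19180), a repressor that is itself induced by jasmonate, read 11.5, 22.3, 25.8 and 28.4 CPM in WT shoots and 60.5, 61.5, 76.9 and 79.6 CPM in mutant shoots, and 94.1 to 133 CPM in roots. Shoot groups were apart and root groups overlapped, with a term of 1.67 ± 0.23 (adjusted p = 4.78e-06). This call was lost with all 32 libraries (adjusted p = 0.127). LOX4 (AT1G72520), a lipoxygenase of jasmonate synthesis, had 2.62 ± 0.62 (adjusted p = 0.00749) and low root levels of 0 to 3.98 CPM. JAZ6 (AT1G72450) differed in both tissues in opposite directions without overlap: 60.1, 69.9, 57.8 and 77.0 CPM in WT shoots against 87.7, 112, 88.3 and 147 CPM in mutant shoots, and 25.9, 29.6, 22.1 and 21.9 CPM in WT roots against 8.05, 17.5, 18.8 and 18.6 CPM in mutant roots. The root effect of -0.62 ± 0.22 alone was not called (adjusted p = 0.61), and the term was 1.31 ± 0.27 (adjusted p = 0.00225). VSP1 (AT5G24780), a vegetative storage protein, had 1.27 ± 0.32 (adjusted p = 0.0232), a call lost in 6 of 16 fits that left out a library (adjusted p up to 0.0773). JAZ6 and VSP1 also lost their calls with all 32 libraries. Without replicate 1 of mutant shoots 8 members were called, and without replicate 2 of WT shoots or replicate 4 of WT roots 7. The synthesis genes AOS (-0.10 ± 0.18) and LOX2 (-0.41 ± 1.09) were not called.

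Sugar starvation genes rose in mutant shoots in most cases, with wide errors of the interaction. Of 16 listed genes 15 were tested, 11 rose in shoots (3.7% of all tested genes; median effect 1.81), none was called in roots (median 0.05), and 14 terms were above 0 (median 1.67), of which 3 were called, beside 1.68% of all tested genes. Mean log2 CPM over the list was 3.51 to 4.36 in WT shoots, 4.82 to 5.98 in mutant shoots and 4.52 to 4.69 in all roots, so that mutant shoots were above the other 3 groups. ASN1 (AT3G47340), the dark-induced asparagine synthetase, read 14.7, 5.94, 10.7 and 21.6 CPM in WT shoots, 46.0, 78.5, 106 and 186 CPM in mutant shoots, 25.2, 31.0, 33.6 and 33.6 CPM in WT roots and 43.8, 23.4, 10.6 and 19.2 CPM in mutant roots. The spread in both mutant groups was broad, and the term was 3.31 ± 0.71 (adjusted p = 0.0284), lost in 10 of 16 fits that left out a library (adjusted p up to 0.0704). TPS11 (AT2G18700), a trehalose phosphate synthase family gene, had 2.37 ± 0.53 (adjusted p = 0.0262) and lost its call in 7 of those 16. SEN1 (AT4G35770), a gene induced by senescence and darkness, had 3.23 ± 0.83 (adjusted p = 0.0494), lost in 12 of the 16 with adjusted p up to 0.184. The number called in the list was 0 without replicate 2 of WT shoots, 3 of mutant shoots, 2 of WT roots, or 3 or 4 of mutant roots, 8 without replicate 4 of WT shoots or 1 of mutant shoots, and 8 with DESeq2. DIN10 (2.29 ± 0.60, adjusted p = 0.0802) and BT2 (2.25 ± 0.77, adjusted p = 0.228), which rose in shoots by 2.52 and 2.95, were not called.

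Other lists of plant nutrition and stress gave 0 or 1 called term each. At 2.21% of all tested genes called, these counts are no result about the lists. Among 22 iron genes, BHLH39 (AT3G56980), a basic helix-loop-helix factor of the iron deficiency response, was called. It read 34.5, 23.0, 17.8 and 15.5 CPM in WT shoots, 11.9, 3.18, 0 and 2.12 CPM in mutant shoots and 39.2 to 74.2 CPM in roots. Its shoot groups were apart, and the term was -2.69 ± 0.60 (adjusted p = 0.0277), lost in 6 of 16 fits that left out a library (adjusted p up to 0.0814). The neighbouring BHLH38 (AT3G56970) had -2.60 ± 0.67 (adjusted p = 0.0721) and can share reads with it. In shoots the regulators BHLH38 and BHLH39, the signaling peptide gene IMA3 and the transporter OPT3 fell (1.47% of all tested genes). The ferritin gene FER4 rose (3.7% of all tested genes), and the median term of the list was -0.44. Without replicate 1 of mutant shoots 4 members had a called term.
In the nitrate list, HHO2 (AT1G68670), a repressor of nitrate responses, had 0.92 ± 0.21 (adjusted p = 0.00623; 0.0678 without replicate 3 of mutant shoots) and was 1 of 13. Among 14 tested clock genes CHE (AT5G08330), a TCP factor, had 1.01 ± 0.28 (adjusted p = 0.0358), lost in 13 of 16 fits that left out a library (adjusted p up to 0.13), and the morning gene CCA1 fell in shoots by 0.59 ± 0.16 with a term of -0.45 ± 0.42. TOC1, an evening gene, rose in shoots by 1.08 ± 0.27 and had a term of 0.76 ± 0.31 (adjusted p = 0.277).
No member was called among 11 tested genes of abscisic acid and cold (median 0.14), 6 of phosphate starvation (median -0.29), 20 of photosynthesis (median 0.19) and 14 root markers (median 0.28), and RBOHD was the single call among 11 tested hypoxia genes (median 0.31). RCA (AT2G39730), Rubisco activase, read 6149, 6198, 6292 and 6181 CPM in WT shoots and 5549, 5081, 5188 and 4756 CPM in mutant shoots, without overlap but at an effect of -0.27 ± 0.09 (adjusted p = 0.057). The mean log2 CPM of the 20 photosynthesis genes was 12.76 to 12.91 in shoots and 3.23 to 4.89 in roots, so that their root effects rest on few counts, and several root markers had no count in shoots.

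**Figure D4:**
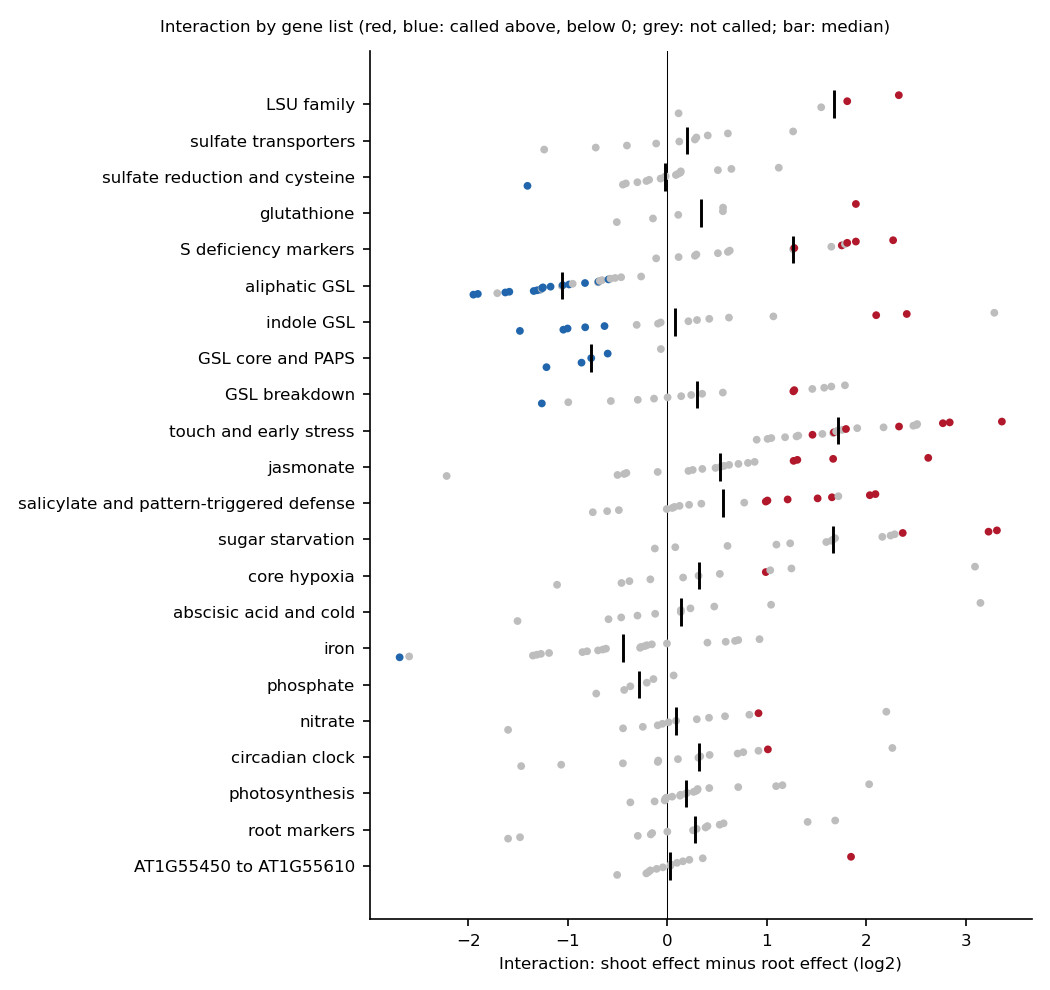
Interaction term (x axis, shoot effect minus root effect, log2) of each tested gene of each list (y axis); red and blue points were called above and below 0, grey points were not called, and the black bar is the median of the list. Aliphatic GSL genes lie on one side (median -1.06) and touch and sugar starvation genes on the other (medians 1.72 and 1.67), while the genes from AT1G55450 to AT1G55610 lie around 0.03.

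The largest called terms included genes of low level in roots and genes nearly absent from one tissue. AT1G02660 and AT5G41740 stood under a mean of 5 CPM in WT shoots and in both root groups. AT1G02660, annotated as an α/β-hydrolase, read 2.56, 2.23, 4.45 and 8.11 CPM in WT shoots and 37.5, 49.9, 47.2 and 50.9 CPM in mutant shoots, with 0.894 to 5.09 CPM in roots. Its term was 3.82 ± 0.52 (adjusted p = 1.07e-06), and the call held without any 1 of the 16 libraries. AT5G41740, a disease resistance gene of the TIR-NBS-LRR class, stood at 3.20, 4.46, 3.56 and 6.08 CPM in WT shoots and at 47.7, 55.2, 54.8 and 27.6 CPM in mutant shoots, against 1.67 to 7.15 CPM in roots, for a term of 3.5 ± 0.51 (adjusted p = 3.99e-06). In both genes the mutant shoots stood apart from all 12 other libraries.
FUT4 (AT2G15390), a predicted fucosyltransferase, was a root gene in WT, with 23.7 to 33.1 CPM in all root libraries and 0.640, 0.743, 0 and 2.7 CPM in WT shoots. In mutant shoots it read 9.37, 1.06, 10.7 and 17.0 CPM, so that replicate 2 overlapped with WT, and the term was 3.16 ± 0.59 (adjusted p = 0.000537). FRA8 (AT2G28110), a glycosyltransferase of secondary walls, had 14.9 to 21.9 CPM in roots, 0 to 0.676 CPM in WT shoots and 1.06 to 4.57 CPM in mutant shoots. Its call was lost in 4 of 16 fits that left out a library (adjusted p up to 0.126) and with all 32 libraries. The acyltransferase gene AT2G32020 had 36.0 to 65.7 CPM in roots, and in shoots at most 0.676 CPM in WT and 1.70 to 4.24 CPM in the mutant. For both, the shoot effect rests on few counts and its size is uncertain. AT1G74070, a cyclophilin-like gene, was the reverse: at 50.9 to 96.2 CPM in shoots with overlapping groups, it had 0.729 to 2.49 CPM in WT roots and none in mutant roots, and its call was lost in 11 of 16 fits that left out a library (adjusted p up to 0.132). AT5G44260, a zinc finger gene, had 3.04 ± 0.75 (adjusted p = 0.0147), and was not called without replicate 4 of WT roots (adjusted p = 0.0507) or of mutant roots (adjusted p = 0.0656).
Among the 10 largest terms below 0, BCAT4, SOT17 and BAT5 belong to GSL synthesis. OCT5 (AT1G79410), an organic cation and carnitine transporter, read 13.4, 13.4, 13.4 and 13.5 CPM in WT shoots, 4.26, 4.24, 3.04 and 5.31 CPM in mutant shoots and 14.6 to 32.7 CPM in roots. Its term was -1.91 ± 0.40 (adjusted p = 0.00162). AK3 (AT3G02020), an aspartate kinase of the pathway that leads to methionine, stood at 90.2, 75.1, 85.4 and 66.2 CPM in WT shoots and at 23.0, 31.8, 14.5 and 11.7 CPM in mutant shoots, with 28.2 to 59.3 CPM in roots (term -1.81 ± 0.29, adjusted p = 0.00028). AT2G44940, a DREB-type ERF/AP2 factor, had -1.80 ± 0.31 (adjusted p = 0.000136). Shoot groups of all 3 were apart. AT3G21805, listed as a snoRNA, read 3.38 to 13.4 CPM in WT shoots and 1.06 to 4.24 CPM in mutant shoots, which overlap, and its term of -2.04 ± 0.52 (adjusted p = 0.0178) was not called without replicate 1 (adjusted p = 0.0827) or 3 (adjusted p = 0.0547) of WT shoots or replicate 4 of mutant shoots (adjusted p = 0.0537). For AT2G21530 and AT4G12830, roots held at most 1.69 and 1.79 CPM, with 0 CPM in all WT roots for AT2G21530 and in 3 of 4 for AT4G12830. Their shoot values did not overlap (186 to 207 CPM in WT and 132 to 175 CPM in the mutant for AT2G21530) but the terms rest on these few root counts, and were lost in 4 and 7 of 16 fits that left out a library.

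A called change in roots with a called term was rare. SOT12, LP1 and AT3G16370 were the 3 genes with both, and in each the root effect was a fall. SOT12 (AT2G03760), a sulfotransferase that acts on brassinosteroids and flavonoids, had the clearest crossing. It read 13.4, 13.4, 12.5 and 12.8 CPM in WT shoots against 14.5, 22.3, 19.0 and 27.6 CPM in mutant shoots, and 120, 112, 122 and 134 CPM in WT roots against 85.9, 49.3, 88.3 and 86.2 CPM in mutant roots. The mutant was above WT in all shoot libraries and below it in all root libraries, with effects of 0.64 ± 0.24, not called (adjusted p = 0.1), and -0.64 ± 0.12 (adjusted p = 0.0049), and a term of 1.28 ± 0.27 (adjusted p = 0.00191).
LP1 (AT2G38540), a lipid transfer protein of the epidermis, was abundant in shoots, at 1993 to 2429 CPM in WT and 1900 to 2094 CPM in the mutant. In roots it read 12, 14.4, 24.9 and 10.2 CPM in WT and 4.47, 7.51, 4.90 and 9.02 CPM in the mutant, and its term of 1.11 ± 0.30 (adjusted p = 0.0333) was lost in 10 of 16 fits that left out a library (adjusted p up to 0.311). AT3G16370, a GDSL-type lipase gene, was also a shoot gene, with 649 to 813 CPM there, and stood at 29.9, 26.4, 22.7 and 21.2 CPM in WT roots and at 17.9, 15.0, 7.35 and 11.8 CPM in mutant roots. Its term was 0.88 ± 0.21 (adjusted p = 0.00686; 0.0642 without replicate 3 of mutant roots). LP1 and AT3G16370 are far more abundant in shoots than in roots, and leaf markers in roots summed to 154 to 371 CPM in WT and 94.0 to 340 CPM in q-lsu-KO; their part in these results was not tested.

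Genes called in both tissues were 7, LSU2 and 6 neighbours on chromosome 1, and none of them had a called term. The neighbours belong to a run of genes from AT1G55450 to AT1G55610 (chr1:20704915-20784017), of which 22 are listed and 13 passed the filter on low counts. All 13 were above WT in both tissues. Of these, 9 were called up in shoots (3.7% of all tested genes) and 8 in roots (0.0666%), which is 8 of the 11 root rises. Medians were 0.92 in shoots and 0.93 in roots, and the median term was 0.03. This run was picked with earlier results known, and its direction is not independent evidence.
CPN60B (AT1G55490), a chaperonin of the plastid, was far higher in shoots than in roots: 372, 370, 425 and 387 CPM in WT shoots against 679, 723, 738 and 706 CPM in mutant shoots, and 25.2, 25.5, 24 and 24.1 CPM in WT roots against 54.6, 41.7, 41.7 and 48.5 CPM in mutant roots. The mutant was above WT in every library, by 0.87 ± 0.08 and 0.92 ± 0.13, and the term was -0.04 ± 0.14 (95% interval -0.33 to 0.24). The RING-type gene AT1G55530 had effects of 1.22 ± 0.17 and 1.18 ± 0.15 and a term of 0.03 ± 0.23 (95% interval -0.42 to 0.49). AT1G55460, a Kin17-type nucleic acid binding protein, ECT4, a reader of methylated RNA, BCDH BETA1 of branched-chain amino acid breakdown and TBP2, a TATA-binding protein, were the other 4 called in both.
The exception was the first gene of the run. AT1G55450, annotated as an S-adenosylmethionine-dependent methyltransferase, read 51.8, 64.7, 44.5 and 83.1 CPM in WT shoots and 339, 372, 505 and 392 CPM in mutant shoots, and 50.5, 62.0, 54.4 and 81.7 CPM in WT roots and 138, 93.5, 118 and 99.2 CPM in mutant roots. Groups were apart in both tissues, the effects were 2.71 ± 0.20 and 0.86 ± 0.21, and the term was 1.85 ± 0.29 (adjusted p = 0.00204). For the other 12 genes terms ran from -0.50 to 0.36, and their 95% intervals reached from -1.17 to 1.47 at the widest, so that differences of up to about those sizes between tissues were not detectable for the least expressed of them.

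**Figure D5:**
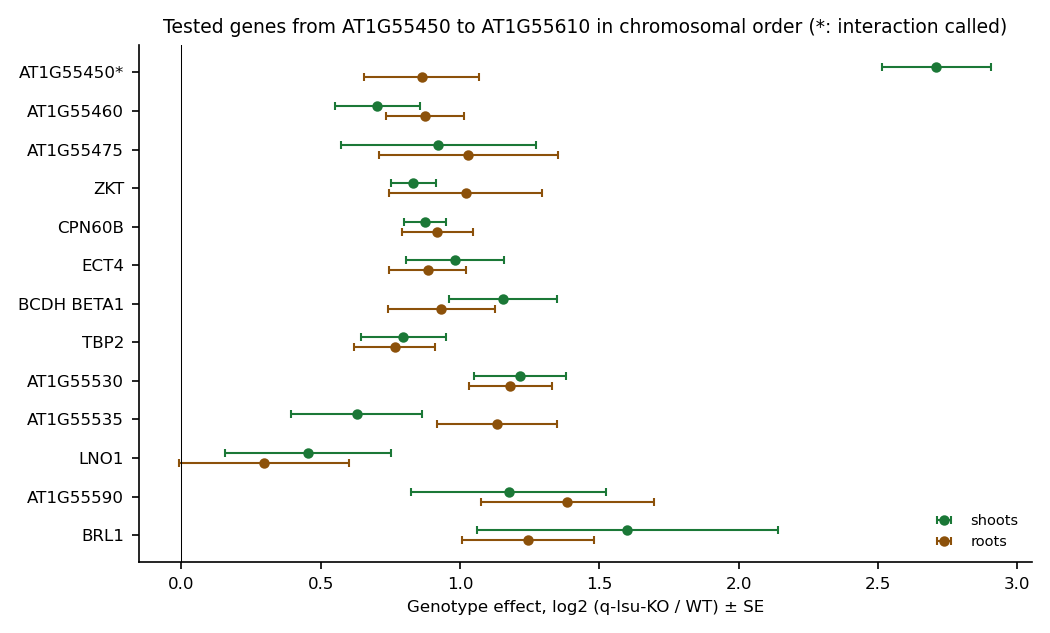
Genotype effect (x axis, log2 of q-lsu-KO over WT, ± SE) in shoots (green) and roots (brown) for the 13 tested genes from AT1G55450 to AT1G55610 in chromosomal order (y axis). Shoot and root points lie on the same side and near each other in 12 genes, and AT1G55450, marked with an asterisk, is the single gene with a called interaction (2.71 in shoots, 0.86 in roots).

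The remaining root calls outside LSU2, the run on chromosome 1 and the 3 genes above were AT1G06463, AT1G10140, AT2G01610, AT2G21640 and AT5G09570, none with a called term. Across the 12403 genes with a mean of at least 5 CPM in each tissue, the shoot and root effects had a Pearson r of 0.116 and a Spearman rho of 0.066, given as a description over genes, which are not independent replicates; the tissues share no library. Without the LSU genes and the run on chromosome 1 (12387 genes) they were 0.078 and 0.0626. Among genes that rose in shoots and were expressed in both tissues (510), the median root effect was 0.03 and 55.29% lay above 0, beside 46.93% of all genes. Among those that fell in shoots (179), the median root effect was -0.06 and 35.75% lay above 0. Root effects of these genes were thus close to 0 at the median, with a slight lean in the direction of the shoots.

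WT levels of the called genes also differed between tissues. WT roots held more of the transcript than WT shoots for 190 of the 278 genes above 0 (68.35%) and for 28 of the 87 below 0 (32.18%), beside 54.07% of all tested genes. The level in mutant shoots was closer to that of WT roots than WT shoots were for 148 of the 278 and 43 of the 87. The share among all tested genes was not computed for this count, so it does not show a move toward the root level. In shoots every mutant library was above every WT library for 249 of the 278 (6.46% of all tested genes) and below it for 73 of the 87 (4.84% of all), and in roots the groups did not overlap for 4 above (1.57%) and 20 below (1.88%) of the 278, and for 13 above and 1 below of the 87. These counts share their values with the term and are a description. At the threshold itself, SEN1 (adjusted p = 0.0494) and the receptor-like kinase gene CRK2 (adjusted p = 0.0498, term 0.90) were just inside, and AT1G13360 (term -0.63) and XTH31, a xyloglucan-modifying enzyme (term -1.19), were just outside (adjusted p = 0.0513 for both).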

How the data were processed

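Transcripts of 4 groups of 4 libraries under [nS] were analysed. Per the labels and the files, the authors deposited 3′RNA-seq data as whole-number counts for 37336 genes, 12509 of them without a count in these libraries. STAR 2.7.8a, DESeq2 and TAIR10 stand in the submitters' processing notes. The counter, its strand setting, the annotation version and any use of molecular identifiers were not given in the sources used here, so near-identical copies, overlapping genes and antisense genes may share reads.

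The counts were tested in 1 model of 4 group means with edgeR 4.0.16 (limma 3.58.1, R 4.3.3), with TMM factors, filterByExpr at a minimum count of 10, a robust quasi-likelihood F-test, two-sided, and Benjamini-Hochberg adjustment over 16522 genes. Calls needed an adjusted p under 0.05 and a fold over 1.5. CPM were TMM-scaled, and log2 CPM used a prior count of 2. Effects are log2 fold changes ± SE with n = 4 libraries per group. The libraries are described as biological replicates without mention of separate plates, so the p-values cover the variation among these libraries, which may be technical in part. Replicates differed by 1.24 to 2.61 times sampling noise (chi-square per degree of freedom), and none was counted as a duplicate. The scripts were tested on simulated data.

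Genes were named by rule: LSU1 to LSU4, the 10 largest called terms in each direction at a mean log2 CPM of 3 or more, up to 4 called members of each list by p (the 2 smallest p where fewer than 2 were called), genes called in both tissues or for the interaction and in roots, and the run on chromosome 1. Members and lists were chosen with earlier results of these data known. List members outside this rule, the remaining root calls and genes at the threshold were named after their values were seen.

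Alternatives were DESeq2 (1.42.0), voom with sample weights, RLE and upper-quartile factors, TMM within tissue, no filter, stricter filters (mean CPM of 5 or more overall or in each tissue), replicate blocks, all 32 libraries, the 8 libraries of a tissue, no organelle genes, adjusted p alone, glmTreat, thinning to the size of the smallest library, and leaving out each library. Names and sequences came from RefSeq (TAIR10.1), in which 37051 identifiers matched and 285 did not; 16354 of the tested genes gave an upstream sequence.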

Additional observations from a re-analysis of the deposited data

Results flagged for a closer look

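By the interaction test itself, shoots and roots differed in their response to genotype for 278 genes above 0 and 87 below 0 (edgeR, adjusted p under 0.05 and over 1.5-fold).

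A library stood apart from the other 3 of its group (Dixon's 95% limit for 4 samples) in 23 of 372 group checks. The checks covered library totals, organelle shares, summed tissue markers and named genes. Chance alone would give about 1 in 20, or 18.6. This rate does not hold where 3 libraries are at 0, which always passes the limit, or all 4, which never does. The total of q-lsu-KO root replicate 4 was 1395792 counts, against 893200 to 942700 in the others (rounded) of its group. In WT shoots, replicate 1 stood apart for AT1G55590 (1.28 CPM) and CYP83B1 (182 CPM), replicate 2 for SOT17 (54.2 CPM) and NRT2.1 (0.743 CPM, with 0 in the others), and replicate 4 for LP1 (1993 CPM), PAP17 (28.4 CPM), BGLU21 (2.7 CPM) and AT2G32020 (0.676 CPM), the last 2 with 0 CPM in the others. In q-lsu-KO shoots, replicate 1 stood apart for AT1G55460 (43.4 CPM) and BHLH38 (14.5 CPM) and replicate 4 for AT2G21530 (132 CPM). In WT roots these were replicate 2 for AT4G12830 (0.463 CPM), replicate 3 for TBP2 (34.2 CPM) and CYP83B1 (252 CPM) and replicate 4 for PAP17 (36.5 CPM). In q-lsu-KO roots, replicate 1 stood apart for BRL1 (24.1 CPM), CML38 (21.5 CPM), AT5G44260 (2.68 CPM) and JAZ6 (8.05 CPM), replicate 2 for SOT12 (49.3 CPM), and replicate 4 for AT2G44940 (41.7 CPM) and VSP1 (173 CPM).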

How the results depend on the processing

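The count of 365 called terms was 322 to 412 under DESeq2, voom with sample weights, RLE and upper-quartile factors, TMM within tissue, stricter filters, the blocks, all 32 libraries, no organelle genes and adjusted p alone. It was 477 with no filter (138 below 0), 219 after thinning to the smallest library (177 above 0 and 42 below) and 99 with glmTreat, which tests for more than 1.5-fold (83 above and 16 below). Leaving out each library gave 268 (without replicate 3 of mutant shoots) to 496 (without replicate 4 of WT shoots) in all, 192 to 352 above 0, and 69 (without replicate 3 of mutant roots) to 161 (without replicate 1 of mutant shoots) below. Shoot calls ran from 650 to 1031 and root calls from 9 (without replicate 3 of WT roots) to 35 (without replicate 1 of mutant roots), and the 8 root libraries alone gave 27 root calls. No called term of a named gene changed sign in any of 31 settings: of 57 such genes 26 kept their call wherever tested and 31 lost it at least once. Of 32 named genes not called, 7 passed somewhere.

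The sources used do not say that replicate numbers pair the libraries. Deviations of same-numbered libraries from their group means had correlations of -0.141 to 0.068. The genes used were those of largest variance over all 16 libraries, which takes in differences between tissues, so this check cannot exclude a pairing. With a replicate block 408 terms were called, 349 of them among the 365, with 864 genes in shoots and 21 in roots, and with a block within each tissue 412 terms were called. The correlation of shoot and root effects, recomputed after the data were seen, was 0.0938 with the block, 0.113 with DESeq2, 0.116 with RLE factors and 0.0839 to 0.125 when a library was left out. Depth limits genes nearly absent from a tissue, whose terms have wide errors.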
